A study of Mus musculus with 36 samples.

Results

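K4me3 and K27me3 peaks were examined at 10 mouse genes that the ERK pathway switches on and that feed back on it or carry its signal to transcription: *Dusp4*, *Dusp5*, *Dusp6*, *Spry1*, *Spry2*, *Spry4*, *Spred1*, *Spred2*, *Etv4* and *Etv5*. They are 10 of 21938 protein-coding genes on the placed chromosomes of the GENCODE M21 annotation, and were chosen by name for their place in the pathway. A mark was assigned to a gene, mouse by mouse, wherever a peak touched the 3 kb on either side of any annotated start site. The width of the widest such peak was its value.

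The peaks came from ChIP-Seq on whole pancreata of 12 mice, 3 for each of 4 genotypes, with a K4me3 and a K27me3 list for every mouse. All mice were 2 to 4 months old, received tamoxifen by gavage and were sampled 22 days later. Wild-type control mice (WT) were compared with *Mist1creERT/+* mice carrying a deleted *Ezh2* SET domain (*Ezh2* ΔSET, EZ), an activated oncogene allele (KR), or both (KE). The Mist1creERT driver is an inducible Cre active in acinar cells, the enzyme-secreting cells of the pancreas. The tissue analysed also held duct, islet, vessel and blood-borne cells in which neither allele was switched. K4me3 marks active or poised start sites, and K27me3, which EZH2 places through its SET domain, marks repressed chromatin. A change in the share of cells that carry a mark and a change within each cell cannot be told apart in whole tissue.

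ERK is the last kinase of a cascade that runs through RAF and MEK. ERK enters the nucleus and activates transcription factors, among them ETS proteins, which then raise a set of early genes that restrain the same pathway. DUSP4, DUSP5 and DUSP6 are phosphatases that remove the activating phosphates from ERK, the first 2 in the nucleus and DUSP6 in the cytoplasm. SPRY and SPRED proteins act upstream and limit the activation of RAF. ETV4 and ETV5 are ETS factors of the PEA3 subfamily, whose own genes rise with ERK activity, and both are used as readouts of the pathway.

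The sequences in question are those of *Etv5* and *Dusp5*, the members whose K4me3 peaks differed most between KR and WT pancreata. The first pair are the bases just upstream of every annotated start, from the RefSeq promoter table (GRCm38.p6, the same assembly as mm10). The second pair are bases inside the gene that lay within the K4me3 peak of all 3 KR mice and of no WT mouse, read from the mm10 genome. They are shown 5′ to 3′ on the strand of the gene, with CpG dinucleotides in capitals, because start sites rich in CpG usually carry K4me3.
Etv5 upstream, chr16:22439720-22439820, minus strand: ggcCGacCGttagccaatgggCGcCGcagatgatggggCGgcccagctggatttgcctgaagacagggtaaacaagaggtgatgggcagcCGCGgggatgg
Dusp5 upstream, chr19:53528895-53529108, plus strand: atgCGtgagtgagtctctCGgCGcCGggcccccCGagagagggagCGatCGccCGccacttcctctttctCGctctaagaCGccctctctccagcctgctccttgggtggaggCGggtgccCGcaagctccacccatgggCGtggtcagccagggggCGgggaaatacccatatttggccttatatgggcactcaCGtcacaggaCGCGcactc
Etv5 intron, chr16:22437695-22437994, minus strand: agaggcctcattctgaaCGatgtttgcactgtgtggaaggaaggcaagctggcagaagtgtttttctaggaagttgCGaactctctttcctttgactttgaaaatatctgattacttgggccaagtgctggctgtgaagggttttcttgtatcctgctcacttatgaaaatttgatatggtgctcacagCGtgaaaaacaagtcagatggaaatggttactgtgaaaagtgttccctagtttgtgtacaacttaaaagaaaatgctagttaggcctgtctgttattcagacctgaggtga
Dusp5 intron, chr19:53530716-53530937, plus strand: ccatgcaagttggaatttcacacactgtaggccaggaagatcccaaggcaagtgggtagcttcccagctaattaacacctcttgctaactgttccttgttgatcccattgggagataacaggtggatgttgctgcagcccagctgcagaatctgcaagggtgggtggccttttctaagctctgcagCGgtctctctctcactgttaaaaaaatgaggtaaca

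The upstream stretches held 7 CpG in 101 bases at *Etv5* and 17 in 214 bases at *Dusp5*. The bases newly inside the KR peaks held far fewer, 3 in 300 and 1 in 222. In *Etv5* the complete stretch ran over 736 bases, from 1725 to 2460 bp downstream of the start, and 74 of them were a non-coding exon while 662 were intron. All 222 bases at *Dusp5*, from 1607 to 1828 bp downstream, were intron. The peaks of KR mice therefore reached past the CpG-rich start into CpG-poor intron at both genes. The CpG content of the bases between, already inside a WT peak, was not measured throughout. That reaching CpG-poor intron is particular to KR is therefore not shown.

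The RefSeq table held promoters of 250 bases before to 50 after a start for 7 of the 10 members, with 2 entries for *Etv5*. *Dusp4*, *Spry4* and *Etv4* were not matched. The 8 entries had a G+C content of 57.0% to 74.0% and an observed-to-expected CpG ratio of 0.701 to 1.03, against medians of 52.7% and 0.384 over 32851 promoters. One flanked form of the ETS motif, CCGGAAG, searched on both strands (reverse complement CTTCCGG), was in 0 of the 8, and in 8.86% of all promoters. The shorter core GGAA was not searched for. The CArG box, bound by serum response factor and its ETS partners, was in 1 of the 8, and in 1.63% of all promoters. That promoter was *Dusp5*, with adjacent boxes starting 82 and 72 bases before the RefSeq start. These are matches of letters and not binding sites.

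A few libraries stood apart. The K4me3 lists held 21815 to 26081 peaks and the K27me3 lists 22415 to 31274 in 11 mice, and 17400 and 21420 in WT mouse 2. In WT mouse 2, 11.7% of autosomal K27me3 peaks overlapped a K4me3 peak of the same mouse, against 0.693% to 4.39% in the other mice. All 8 acinar markers examined carried K4me3 in all 12 mice, with a summed width of 37.4 kb to 75.5 kb in WT, 80.7 kb to 89.9 kb in EZ, 66.5 kb to 100 kb in KR and 68.2 kb to 99.0 kb in KE mice. Of 7 islet markers, the hormone genes *Ins2*, *Gcg* and *Sst* and the factor gene *Mafa* had none in any mouse, while *Pax6* carried K4me3 in 12 mice and *Neurod1* and *Nkx6-1* in 11 each. Of 7 immune markers, 6 carried K4me3 in WT mouse 2 and in KR mouse 1, with summed widths of 24.4 kb and 19.1 kb. The other 10 mice had 1 to 3 of the 7, and 1.62 kb to 6.42 kb. *Cd3e*, which defines T cells, was at 0 in those 10 mice, as was *Spi1*, a myeloid and B cell factor. Of the macrophage markers, *Adgre1* was at 0 in all 12 mice, whereas *Cd68* carried K4me3 in all 12, at 1435 to 1980 bp. WT mouse 2 had 3 of 5 ductal markers, at 9.04 kb, and the other mice all 5, at 16.2 to 21.1 kb. At 4 endothelial markers WT mouse 2 and KR mouse 1 had 5.7 and 5.9 kb, and the other mice 1.2 to 3.34 kb. All 3 KR mice and EZ mouse 2 had K4me3 at 4 Y-linked genes, none at *Xist*, and 10 to 35 K27me3 peaks on chromosome X. The other 8 mice had no K4me3 at those Y-linked genes, K4me3 at *Xist*, and 5637 to 7367 K27me3 peaks on chromosome X. KR differed from WT and from KE in these marks in every mouse, so that genotype and these marks of sex cannot be told apart in those comparisons. All 10 members are autosomal.

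K4me3 was present at all 10 members in all 12 mice. Over all protein-coding genes, 56.9% had K4me3 in all 12. No value in the lists measures peak height, so the width was compared. By mean width in WT mice *Dusp6* came first, at 5366, 8566 and 6133 bp. *Dusp4* followed at 5280, 5436 and 5432 bp, and *Spry2* at 6092, 3062 and 6066 bp. *Spred1* had 4443, 4492 and 4735 bp. Neighbours among these 4, in the order of mean width, overlapped. The order rests on WT mouse 2, without which *Spry2* came first, at a mean of 6079 bp against 5750 bp for *Dusp6*. *Spred2*, *Spry1* and *Etv5* lay in the middle and overlapped with each other, at 3087 to 3157, 2750 to 3341 and 2536 to 3110 bp. *Spry4* and *Dusp5* overlapped at 1819 to 2246 and 1857 to 2362 bp. *Etv4* was the narrowest, at 1337, 1468 and 1311 bp, below every other member in every WT mouse. Among the 12478 genes with K4me3 in all 12 mice, *Dusp6* ranged from the 93.8th to the 99.6th percentile of width across mice, and *Etv4* from the 5.09th to the 18.5th. The ETS genes *Etv4* and *Etv5* were thus far apart, and so were the nuclear phosphatases *Dusp4* and *Dusp5*.

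**Figure D1:**
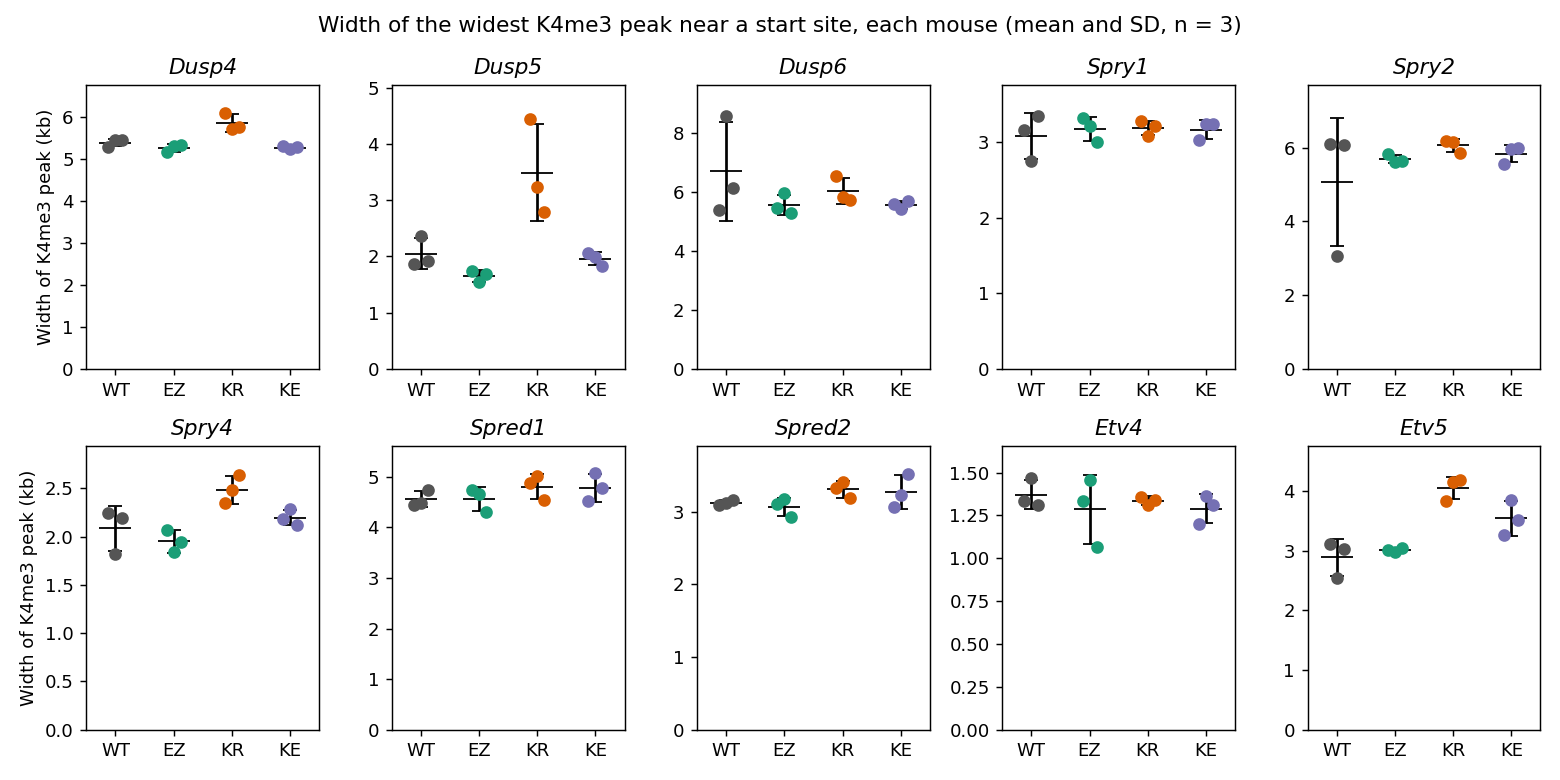
Width in kb of the widest K4me3 peak within 3 kb of a start site, for each gene in 3 mice of each genotype (points), with the mean and SD (bars). *Etv5* and *Dusp5* are wider in every KR mouse than in any WT mouse. The 8566 bp point of *Dusp6* and the 3062 bp point of *Spry2* are both WT mouse 2.

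KR was compared with WT to ask how the activated allele bore on these genes. *Etv5* widened. Its K4me3 peak was 3110, 2536 and 3029 bp in WT mice and 3836, 4145 and 4181 bp in KR mice, with no overlap between the groups. The means were 2892 ± 311 bp and 4054 ± 190.0 bp (SD, n = 3 mice). After log2 transformation and centring of each mouse on the median of all genes tested, the difference was 0.49 with an SE of 0.066, a 1.4-fold increase, with an adjusted p of 0.0318 (limma, Benjamini-Hochberg over 12478 genes). Of all genes tested, 0.0801% passed this threshold, 9 wider and 1 narrower, and *Etv5* was the 9th by p. It was the only member called. Leaving out WT mouse 1, WT mouse 3, KR mouse 2 or KR mouse 3 gave 0.54, 0.49, 0.48 and 0.44 with adjusted p of 0.0607, 0.142, 0.158 and 0.15 (limma). The call was also lost, at a difference of 0.52, when the marks of chromosomes X and Y were a covariate (adjusted p = 0.959), and no gene at all was then called. It was lost as well with widths not centred, with only WT and KR mice in the fit and with a replicate block (adjusted p of 0.194, 0.521 and 0.16, limma).

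*Dusp5* showed the largest difference of the 10 genes. Its peak was 1857, 2362 and 1925 bp in WT and 4446, 3238 and 2787 bp in KR mice. Every KR mouse was above every WT mouse, and KR mouse 1 was above the others. The centred log2 difference was 0.75 with an SE of 0.165 and a 95% confidence interval of 0.38 to 1.11. It did not pass adjustment over all genes (limma, adjusted p = 0.273) and ranked 49th of 12478 genes by p. The widest *Dusp5* peaks of either group, in WT mouse 2 and KR mouse 1, were those of the mice with K4me3 at *Cd3e*. With both left out, *Dusp5* and *Etv5* were called, at log2 differences of 0.73 and 0.50 and adjusted p of 0.0211 and 0.0163 (limma, 2 WT and 2 KR mice), and 0.418% of 12932 genes passed. With WT mouse 2 alone left out, *Dusp5* also passed (0.90, adjusted p = 0.0477), and 0.466% of 12867 genes did. With KR mouse 1 alone left out it did not (0.57, adjusted p = 0.372), nor with any of the other 4 WT and KR mice left out singly (adjusted p of 0.254 to 0.675), nor with the marks of chromosomes X and Y as a covariate (0.90, adjusted p = 0.999, limma throughout).

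**Figure D2:**
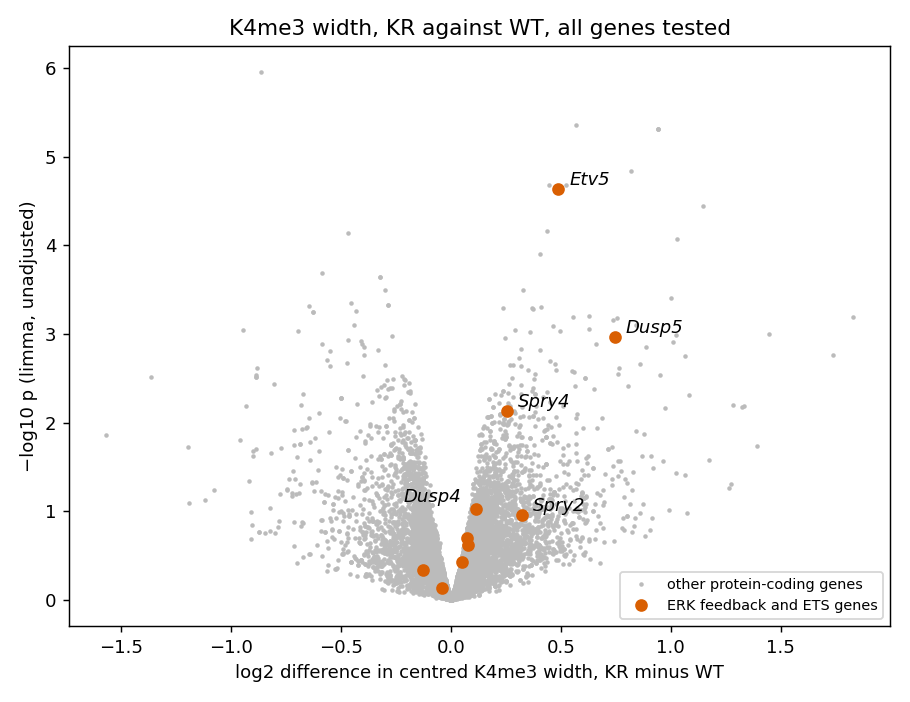
Difference in centred log2 K4me3 width between KR and WT mice (x axis) against −log10 of the unadjusted limma p (y axis), for 12478 genes (grey) and the 10 ERK feedback and ETS genes (orange). *Etv5*, at 0.49, lies highest of the 10, and *Dusp5*, at 0.75, lies farthest to the right.

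*Spry4*, whose product restrains RAF, was 2246, 1819 and 2188 bp in WT and 2346, 2478 and 2633 bp in KR mice. The groups did not overlap, but the difference of 0.26 ± 0.076 (SE) was not called (limma, adjusted p = 0.554). *Dusp4* had 5280 to 5436 bp in WT and 6091, 5698 and 5744 bp in KR mice, a difference of 0.11 (adjusted p = 0.816, limma). *Spred2* had 3330, 3406 and 3183 bp in KR mice, just above the 3087 to 3157 bp of WT. Together with *Etv5* and *Dusp5*, 5 of the 10 genes had every KR mouse above every WT mouse. This held for 4.01% of all genes tested, and the reverse, true of 0 members, for 3.49%. With 3 mice against 3 the exact permutation test gave the smallest p it allows, 0.1 two-sided, at these 5 genes. This test and all such counts, here and below, use widths as deposited, not centred. Centred widths were not checked for separation. The median width as deposited over the genes tested was 2148 bp in WT mouse 2 and 2231 to 2427 bp in the other mice.

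The other 5 members showed no separation. *Spry1* had 3275, 3087 and 3210 bp in KR mice, and its centred difference from WT was 0.05 (95% confidence interval −0.07 to 0.17). *Spred1* had 4881, 5009 and 4534 bp, with a difference of 0.07 (−0.05 to 0.19). *Etv4* had 1359, 1309 and 1341 bp, and its difference was −0.04 (−0.29 to 0.21). The direction turned, to 0.33, when all peaks in the window were summed or its covered bases counted (adjusted p of 0.696 and 0.697, limma). The intervals of *Dusp6* (−0.50 to 0.24) and *Spry2* (−0.09 to 0.73) were wide, because the WT group held the 8566 bp and 3062 bp peaks of mouse 2. At *Spry2* the peak of that mouse was split, with another of its peaks upstream of the start. Over the 10 genes, 8 differences were above 0 with a median of 0.10, against a median of 0.002 and 50.8% above 0 over all genes tested. Without WT mouse 2 all 10 were above 0, with *Dusp6* at 0.12 in place of −0.13, *Etv4* at 0.06 in place of −0.04 and *Spry2* at 0.04 in place of 0.32.

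**Figure D3:**
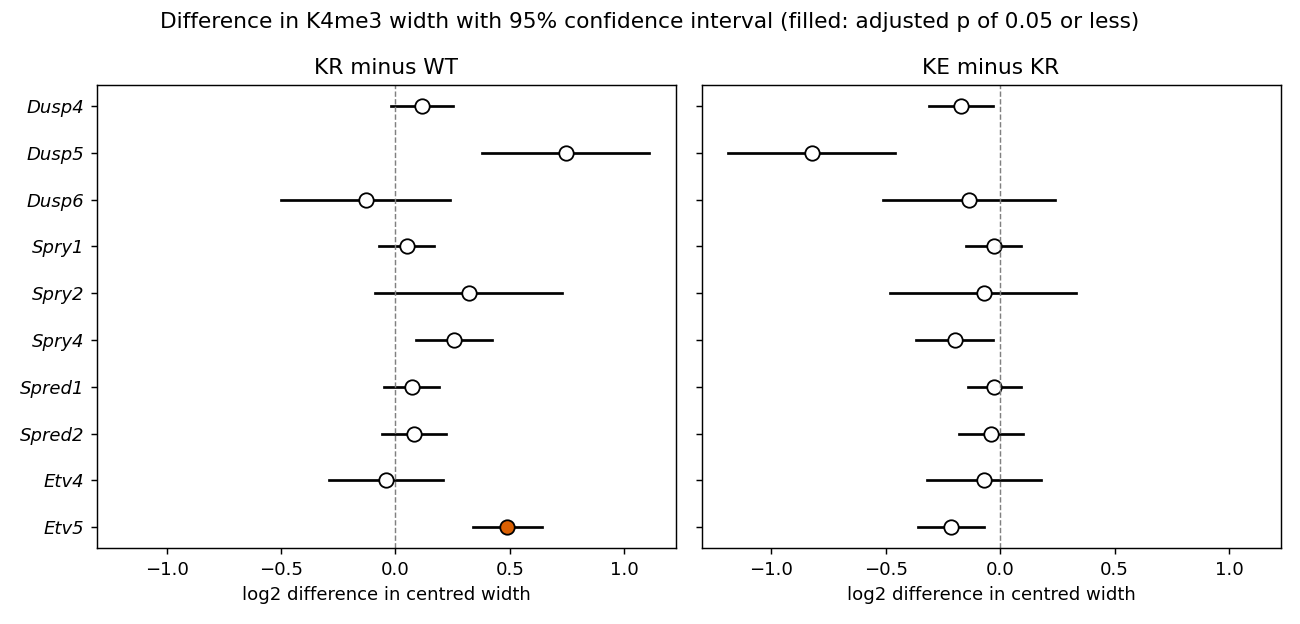
Difference in centred log2 K4me3 width for each gene, KR minus WT (left) and KE minus KR (right), with 95% confidence intervals. The filled point is *Etv5* in KR minus WT, the only one with an adjusted p of 0.05 or less. In KE minus KR all 10 points are below 0, of which 4 turned positive with the marks of chromosomes X and Y as a covariate.

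At *Etv5* and *Dusp5* the added width lay mainly within the gene. Measured from the upstream-most protein-coding start, the downstream edge of the *Etv5* peak was at 1724, 1279 and 1719 bp in WT, 1733, 1647 and 1685 bp in EZ, 2460, 2688 and 2706 bp in KR and 2013, 2213 and 2059 bp in KE mice. All KR mice reached past all KE mice, and all KE mice past all WT mice. For KE edges past WT edges the share over all genes was not counted. The upstream edge, in contrast, overlapped between WT (1256 to 1385 bp) and KR (1375 to 1474 bp). At *Dusp5* the downstream edge was at 889, 1606 and 924 bp in WT, 3440, 2123 and 1828 bp in KR and 1111, 1049 and 919 bp in KE mice, and the upstream edge overlapped between WT and KR. *Dusp4* reached 2965 to 3342 bp in KR and 2696 to 2943 bp in WT mice, and *Spry4* 1322 to 1429 bp and 1006 to 1281 bp. Their upstream edges overlapped between KR and WT, but the means were also farther out in KR, at 1113 against 932.7 bp for *Spry4* and 2680 against 2568 bp for *Dusp4*. *Spred2* differed by 4 bp at the nearest pair. The downstream edge was farther in every KR than in every WT mouse at 5 of the 10 members and at 3.92% of 10291 genes whose start lay in a K4me3 peak in all 12 mice. The upstream edge was farther at 1 member, *Spry1*, and at 4.05% of those genes.

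**Figure D4:**
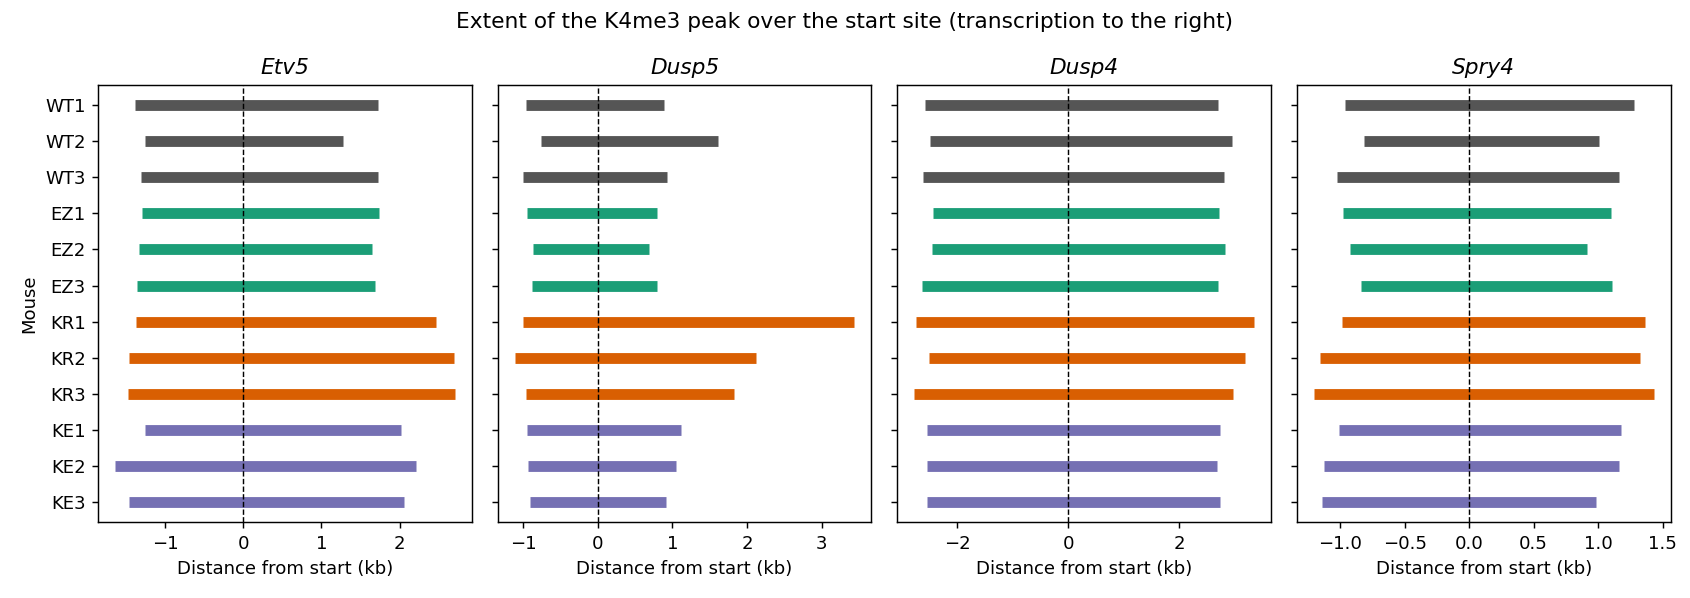
Extent of the K4me3 peak over the start site of 4 genes in each of 12 mice, in kb from the upstream-most protein-coding start (dashed line), with transcription to the right. The right end of the bar is farther from the start in all 3 KR mice than in any WT, EZ or KE mouse.

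KE was compared with KR to ask whether these peaks depended on a functional EZH2 in the presence of the activated allele. *Dusp5* had 2063, 1986 and 1834 bp in KE mice, all below the 2787 bp of the lowest KR mouse. The centred difference was −0.82 with an SE of 0.165, the largest of the 10, and was not called (limma, adjusted p = 0.325, the 20th gene by p). With WT mouse 2 and KR mouse 1 left out it was −0.65 and was called (adjusted p = 0.0339, limma), as were 0.209% of genes. That was the only one of 20 alternatives to call it. With KR mouse 1 alone left out the difference was −0.65 as well, with an adjusted p of 0.47, and with the marks of chromosomes X and Y as a covariate it was −0.98 with an adjusted p of 1 (limma). *Dusp4* had 5292, 5222 and 5270 bp in KE mice, and *Spry4* 2183, 2283 and 2124 bp, in both cases below every KR mouse. Their differences were −0.17 (95% confidence interval −0.31 to −0.03) and −0.20 (−0.37 to −0.03). *Dusp6* also had lower values in every KE mouse, 5576, 5408 and 5676 bp, against 6544, 5825 and 5726 bp in KR. *Etv5* had 3266, 3849 and 3518 bp in KE mice, and 1 of these exceeded the lowest KR mouse by 13 bp. Its difference was −0.21 (−0.36 to −0.07).

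None of the 10 genes was called in this comparison by limma, against 0.0401% of all genes, and 4 had an unadjusted p under 0.05, as had 4.35% of all genes. All 10 differences were below 0, with a median of −0.10. With the marks of chromosomes X and Y as a covariate, 4 of them turned positive, at 0.21 (*Etv4*), 0.03 (*Spred2*), 0.01 (*Dusp6*) and 0.01 (*Spred1*), and *Spred2* was also positive when all peaks in the window were summed (0.05) or its covered bases counted (0.05). Over all genes the median was 0.005 and 52.1% were above 0. The 4 genes *Dusp4*, *Dusp5*, *Dusp6* and *Spry4* had every KE mouse below every KR mouse, as had 2.32% of genes, and 0 members had every KE mouse above, as had 6.89%. Of the downstream edges, 5 (these 4 and *Etv5*) were nearer the start in every KE than in every KR mouse, against 2.71% of 10291 genes. The comparison uses the same KR mice as the one before, which are also the mice with the marks of chromosome Y.

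EZ and KE were each compared with WT. In EZ mice *Etv5* had 3020, 2974 and 3045 bp, within the WT range. *Dusp5* had 1750, 1544 and 1682 bp, below every WT mouse, and its centred difference of −0.35 (95% confidence interval −0.71 to 0.02) was not called (limma, adjusted p = 0.787). Without WT mouse 2 it was −0.19 (adjusted p = 1, limma). *Dusp5* was the only member with every EZ mouse below every WT mouse, which held for 2.24% of genes, and 0 members had every EZ mouse above, against 9.4% of genes. EZ mouse 2, which carried the same marks of chromosomes X and Y as the KR mice, had 1544 bp at *Dusp5* and 2974 bp at *Etv5*, the lowest EZ value at both genes. At *Dusp4* and *Spry4* it had 5291 and 1839 bp, below every KR mouse. At *Dusp6*, in contrast, it had 5948 bp, the highest EZ value and above KR mice 2 and 3, at 5825 and 5726 bp. A single such mouse of another genotype cannot separate these marks from genotype. No member was called between EZ and WT by limma and 0 had an unadjusted p under 0.05, while 0.024% of all genes were called. Of the 10 differences 8 were below 0, with a median of −0.08. Over all genes the median was 0.006 and 52.2% were above 0.

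*Etv5* had higher values in KE than in WT mice. Every KE mouse (3266 to 3849 bp) was above every WT mouse (2536 to 3110 bp), and the centred difference was 0.27 (95% confidence interval 0.13 to 0.42). It was not called (limma, adjusted p = 0.452, the 49th gene by p). KE and WT mice, like EZ mice 1 and 3, shared the same marks of chromosomes X and Y. *Etv5* was the only member with every KE mouse above every WT mouse, as were 5.07% of genes, and 0 members were below in every mouse, as were 2.93%. *Dusp5* differed between KE and WT by −0.08 (−0.45 to 0.29), and by 0.08 without WT mouse 2. None of the protein-coding genes tested was called between KE and WT (0% of 12478, limma), although 815 had an unadjusted p under 0.05, among them 1 member, *Etv5*.

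The difference between the effects of *Ezh2* ΔSET with the activated allele (KE against KR) and without it (EZ against WT) was tested as an interaction. No member was called by limma, and 0.024% of genes were. *Etv5* alone had an unadjusted p under 0.05, as had 3.77% of genes, with an interaction of −0.23 (95% confidence interval −0.44 to −0.02, limma, adjusted p = 0.998). That of *Dusp5* was −0.48 with an SE of 0.233.

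*Etv4*, *Spred2* and *Etv5* have annotated starts far inside the gene. The internal *Etv4* start, 13190 bp downstream of the main one, carried K4me3 of its own in 11 of 12 mice. The peak was 971 and 952 bp in WT mice 1 and 3 and was missing in WT mouse 2. It was 943, 867 and 902 bp in EZ, 1146, 1160 and 1167 bp in KR, and 1050, 1143 and 1199 bp in KE mice. The 6 KR and KE mice were thus all above the 5 WT and EZ mice that had the peak, whereas the main *Etv4* peak had overlapping widths. This was seen in the data and was not tested, and how many other starts show such a split was not counted. The internal *Spred2* start, 30195 bp downstream, had a peak in all 12 mice, of 861 bp in WT mouse 2, 2911 bp in KE mouse 2 and 1908 to 2206 bp in the rest. The *Etv5* start 37890 bp downstream had none in any mouse. The peaks of *Dusp5*, *Spry1* and *Spry4* also covered the start of a gene of another annotated type on the opposite strand, 546, 709 and 119 bp from their own.

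K27me3 was all but missing from these start sites. Of 120 pairs of gene and mouse, 2 had a K27me3 peak within 3 kb of a start. Both were in WT mouse 2, at *Spry4* (a peak of 12737 bp) and at *Etv4* (12660 bp). No member carried K27me3 in all 3 mice of any genotype, against 13.7% of protein-coding genes, and 8 of 10 had none in any mouse, while 35.5% of genes had it in at least 1. EZ, KR and KE mice had no such peak at any member. The depth is unknown, and a mark too weak to be called as a peak would be missed.

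**Figure D5:**
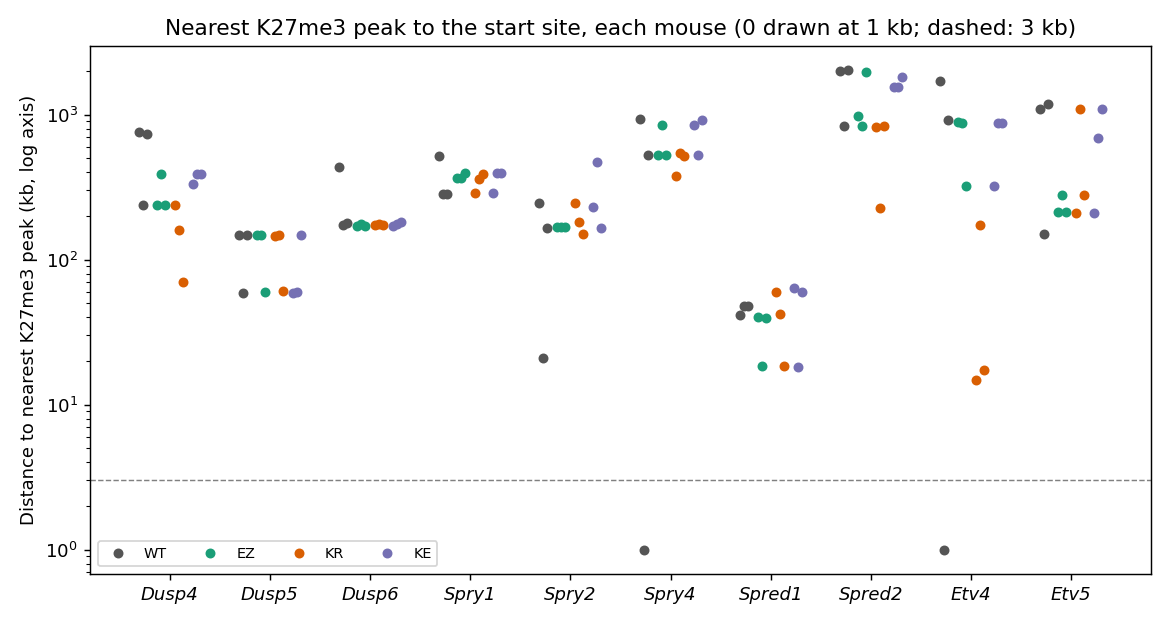
Distance in kb (log axis) from the main start of each gene to the nearest K27me3 peak in each of 12 mice, coloured by genotype, with peaks over the start drawn at 1 kb and a dashed line at 3 kb. The 2 points under the line are WT mouse 2, at *Spry4* and *Etv4*. *Spred1* is the only gene with a peak within 100 kb in every mouse.

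With the longer window that the study used for K27me3, from 100 kb upstream to 3 kb downstream, *Spred1* carried the mark in all 12 mice, as did 14.5% of genes. The nearest peak lay 18.3 to 63.8 kb from its start. The window held 23556, 19545 and 21475 bases of K27me3 in WT, 17384, 41466 and 26016 in EZ, 25071, 33604 and 41775 in KR and 15090, 37172 and 17737 in KE mice. Every KR mouse was above every WT mouse (exact permutation, p = 0.1, the smallest possible), as at 15.5% of the 3188 genes with the mark in all 12 mice, and EZ and KE mice overlapped with both. *Etv4* had K27me3 in this window in WT mouse 2 and KR mice 1 and 3, *Dusp4* in KR mouse 3, and *Spry2* and *Spry4* in WT mouse 2. The other 5 members had none. The nearest K27me3 peak was at least 150 kb from the start of *Etv5* and at least 58.5 kb from that of *Dusp5* in every mouse.

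Other genes of the pathway were taken from lists of 27 further feedback and ETS genes and 22 genes of the core cascade to ERK. Of these, 25 and 22 carried K4me3 in all 12 mice, and none lacked it in every mouse, with *Erg* and *Dusp9* carrying it in 1 and 2 mice. None was called by limma in any of the 4 comparisons. At an unadjusted p under 0.05 there were 4 and 2 between KR and WT, 2 and 0 between KE and KR, 1 and 1 between EZ and WT, and 1 and 1 between KE and WT. Over all genes the shares were 6.43%, 4.35%, 6.11% and 6.53%. The median KR minus WT difference was 0.03 and 0.01, against 0.10 at the 10 members. Among cell type markers with K4me3 in all 12 mice it was 0.48 at 8 acinar and 0.24 at 3 ductal genes. It was −0.14 at 2 stellate and fibroblast genes, and −0.37, −0.33 and 0.08 at the single endothelial, islet and immune genes. None of these markers was called between KR and WT (limma). The fibroblast markers *Pdgfrb* and *Dcn*, outside these medians, carried K4me3 in 4 and 5 of 12 mice, none of them KR. The acinar markers had a summed width of 75.5 kb in WT mice 1 and 3 and 37.4 kb in WT mouse 2, against 66.5, 100 and 69.0 kb in KR mice, and their median EZ minus WT difference was also 0.48. *Etv1*, the remaining PEA3 factor, and *Dusp1*, a phosphatase of the wider MAP kinase family, were picked out after their values were seen. The *Etv1* peak was 4234, 3795 and 4204 bp in WT, 3995, 3836 and 4016 bp in EZ, 4812, 5009 and 4618 bp in KR and 4052, 4214 and 4202 bp in KE mice. Every KR mouse was above all others, and the differences of 0.24 from WT and −0.23 to KE had adjusted p of 0.227 and 0.335 (limma). *Dusp1* went the other way, at 4421, 2901 and 4309 bp in WT, 2744, 2749 and 2425 bp in EZ, 2618, 2370 and 2642 bp in KR and 2619, 2918 and 2222 bp in KE mice. Every EZ and KR mouse was below every WT mouse, and the differences from WT of −0.58 in EZ and −0.59 in KR had adjusted p of 0.495 and 0.292 (limma). The remaining 2 listed feedback and ETS genes with an unadjusted p under 0.05 between KR and WT were *Spred3* at 0.20 and *Phlda3* at −0.31.

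K27me3 was found in all 3 mice of at least 1 genotype at 4 of these listed genes, 3 of the 27 and 1 of the 22, against the 13.7% of protein-coding genes given above. *Ets1*, a factor of lymphoid and endothelial cells, had it in 1 WT, 3 EZ, 2 KR and 1 KE mice. *Erg*, an endothelial factor, had it in 2 WT, 2 EZ, 3 KR and 3 KE mice. *Fli1*, a factor of blood and endothelial cells, had it in 1 WT, 2 EZ, 1 KR and 3 KE mice. *Rps6ka3*, an ERK-activated kinase gene on chromosome X, had it in WT mice 2 and 3, EZ mice 1 and 3 and all 3 KE mice. WT mouse 1 lacked it, as did all 4 mice with the marks of chromosome Y, the KR mice and EZ mouse 2. K4me3 at *Ets1* was 12582 bp wide in WT mouse 2 and 9776 bp in KR mouse 1, against 2140 to 6241 bp in the other 10. The 2 mice are those with K4me3 at *Cd3e*.

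The genes whose centred widths followed that of *Dusp6* most closely over the 12 mice were *Rbm38*, *Peli1* and *Snn*, with Pearson's r of 0.966, 0.949 and 0.949. All 3, like *Dusp6*, were widest in WT mouse 2, at 6609, 6499 and 6130 bp, and next widest in KR mouse 1, at 3410, 4526 and 3174 bp. *Dusp6* had 8566 and 6544 bp in these mice.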

How the data were processed

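K4me3 and K27me3 were measured by ChIP-Seq in whole pancreata of 12 mice, grouped by the genotype in the labels. The authors aligned reads to mm10 with bowtie2 after FastQC and called peaks for each library separately with the histone mode of HOMER findPeaks, using local background and the matching input (versions are not given in the sources used here). The authors deposited peak start and end positions, in base pairs, beside a score column that holds 1 for every peak. Depth and signal are therefore unknown, and width can move with depth. The input samples were not analysed here.

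Peaks were assigned to genes of GENCODE M21 when they overlapped, by at least 1 bp, the 3 kb on either side of any transcript start. Log2 widths of the widest K4me3 peak were centred on each mouse's median over the 12478 protein-coding genes marked in all 12 mice, and fitted by genotype with limma 3.58.1 (R 4.3.3), calling adjusted p of 0.05 or less. Exact two-sided permutation tests, on values that were not centred, accompany it, and 0.1 is their smallest p. The script was tested on simulated widths. The labels call the mice biological replicates.

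The members, gene lists and markers were chosen with earlier results of these data known. The text names all 10 members, listed genes called, with K4me3 in no mouse or with K27me3 in all 3 mice of a genotype, and the 3 genes most correlated with the member of widest WT mean. Other listed genes were named after their values were seen. *Spry3*, on an unplaced scaffold, was left out, and the identity of the activated allele and of a lymphocyte marker is not reported here. Alternatives covered start sites, windows, minimum widths, equal peak numbers, centring, width measures, gene sets, groups in the fit, a replicate block and each mouse left out. Added after seeing the data were a spread trend, quantile normalization, autosomes, a covariate for marks of chromosomes X and Y, and leaving out WT mouse 2 with KR mouse 1.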

Additional observations from a re-analysis of the deposited data

How the results depend on the processing

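The count of members called between KR and WT changed in 10 of 20 alternatives, falling in 8 and rising in 2. The other 7 counts of members were 0 or all 10 and had little room to move; together they changed in 3 alternatives. *Etv5* was wider in KR than in WT mice under all 20 alternatives, by 0.44 to 0.54 on the log2 scale, and was called in 12. The count of members called between KR and WT fell from 1 to 0 without centring, with only the 2 groups in the fit, which leaves fewer mice to estimate the spread, and with the X and Y marks as a covariate. *Etv5* then had adjusted p of 0.194, 0.521 and 0.959 (limma). Why the call was lost was not tested for any of these. With each mouse left out in turn the count was 0 to 2 between KR and WT. With WT mouse 2 and KR mouse 1 left out it was 2, and 1 between KE and KR, in each case with *Dusp5*. *Dusp4*, *Dusp5* and *Spry4* also kept their direction in all 20 alternatives for KR against WT and for KE against KR. *Etv4* changed sign in 5 of 20 and *Dusp6* in 2 of 20 for KR against WT, and for KE against KR *Spred2* did in 5 and *Etv4*, *Dusp6* and *Spred1* in 1 each, all uncalled throughout.

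The replicate block gave 0 members called between KR and WT (*Etv5* 0.49, adjusted p = 0.16, limma) and changed no other call. Same-numbered mice were not shown to be paired: their deviations correlated at −0.528 to 0.375, over 0.1 in 7 of 18 pairs, and 1 of 12 mice correlated best with its own number. The window of 100 kb upstream gave 1 member with K27me3 in all 3 mice of a genotype and 1 with separated covered lengths, *Spred1* in both cases.

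The peak lists give no counts, so peak height and depth stay unknown, and 3 mice a genotype limit every comparison. KR differs from WT and KE in the marks of sex in every mouse.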
